A study of Homo sapiens with 9 samples.

Results

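The genes described here are the 10 that encode the ligands TGFB1, TGFB2 and TGFB3, the receptors TGFBR1, TGFBR2 and TGFBR3, and the latent TGF-beta binding proteins LTBP1, LTBP2, LTBP3 and LTBP4. They were chosen by symbol, and all 10 were found among the 11960 genes named on the array, through 18 probe sets. Each gene is represented by its brightest probe set, by the mean of all 9 arrays, with its other probe sets as a check. To be tested, a gene had to reach a log2 value of 4 on 3 or more arrays, and only 3 of the 10 (TGFB1, TGFBR2 and LTBP2) did, each of them on all 9. The other 7 genes lay below that minimum on every array.

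TGF-beta is made as a precursor whose cleaved propeptide stays bound to the mature cytokine and keeps it inactive. An LTBP is joined to the propeptide and anchors most of this latent complex to the matrix, from which integrins, proteases or thrombospondin can release the cytokine. The released ligand binds the type II receptor TGFBR2, which then phosphorylates the type I receptor TGFBR1, and TGFBR3 (betaglycan) presents ligand to them. LTBP2 is the family member that does not bind the latent cytokine and is a component of fibrillin microfibrils. In the kidney, TGF-beta is best known as a driver of tubular dedifferentiation and fibrosis.

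HK-2 is a line of human proximal tubule epithelium, immortalised with genes of a human papillomavirus, and all 9 arrays hold RNA from it. The 3 groups of 3 arrays are cells labelled untreated at 0 h, cells after 24 h of TGFβ1 and cells after 48 h of TGFβ1. All groups grew in a medium with EGF, hydrocortisone, triiodothyronine and insulin, transferrin and selenium. The design text calls the first group vehicle, and no untreated culture of 24 h or 48 h was analysed here, so exposure and time in culture cannot be told apart. An array holds the pooled plates of 1 time point from 1 run, the runs used consecutive passages, and the replicate numbers in the titles were taken to mark the runs. TGFβ1 was added as protein, so its addition does not itself add TGFB1 transcript.

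Levels are the deposited log2 values. The median of an array lay between 2.2 and 2.23. Of 13 epithelial and proximal tubule markers measured, 6 reached the minimum for a test (KRT8, KRT18, KRT19, EPCAM, CDH6 and PAX8), and of these EPCAM and PAX8 fell at both times in limma's linear model over all arrays. EPCAM had means of 8.36, 7.10 and 7.19 at 0, 24 and 48 h (limma, adjusted p = 0.00116 and 0.00172), and PAX8 had 7.37, 6.77 and 6.56 (adjusted p = 0.0233 and 0.00496). CDH6 had 7.24, 7.99 and 8.57 (adjusted p = 0.398 and 0.103, and 0.00659 at 48 h with the replicate block, a term for each run), and KRT8 had 7.34, 7.98 and 7.79 (adjusted p = 0.064 and 0.222, and 0.0123 with the block at 24 h). KRT18 and KRT19 did not pass. The part of these changes in the results for the TGF-beta genes was not tested. The brush border and transport genes LRP2, CUBN, AQP1, ANPEP, SLC5A2 and SLC34A1, and the E-cadherin gene CDH1, did not reach the minimum on any array. None of 5 endothelial and none of 6 leukocyte and platelet markers reached it, and the mean of the leukocyte and platelet list lay between 1.23 and 1.41 on all arrays. Of 8 fibroblast markers LUM reached it, and the mean of that list lay between 2.39 and 2.63 in untreated cells, 2.43 and 2.82 at 24 h, and 2.56 and 2.69 at 48 h. LUM had means of 6.48, 6.11 and 6.82 and did not pass in any comparison. COL1A1, named after its values were seen, lay below the minimum on every array, with means of 1.73, 3.08 and 2.84. DCN also had higher means at both times, and COL1A2, COL3A1, PDGFRB and THY1 had lower ones.

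**Figure D1:**
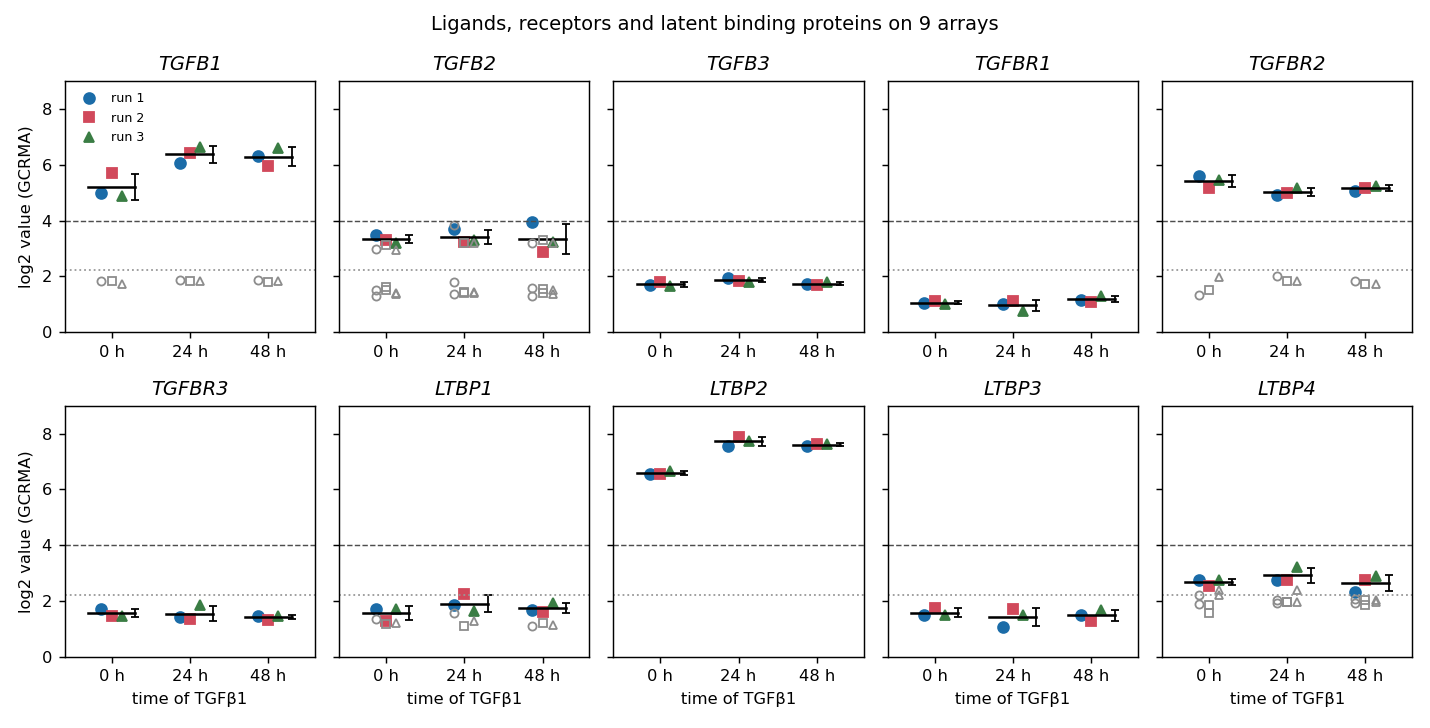
Log2 value (vertical axis) of the 10 genes by time of TGFβ1 (horizontal axis), with 1 symbol per run; coloured points are the probe set that stands for the gene, open grey points its other probe sets, and bars the mean with the SD of 3 arrays. The dashed line marks 4 and the dotted line the array median of 2.23: TGFB1, TGFBR2 and LTBP2 lie above 4 on all arrays and the other 7 genes lie below it.

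At 24 h of TGFβ1 the ligand gene TGFB1 and the latent binding protein gene LTBP2 rose, each a little over 2-fold, and at 48 h LTBP2 was still higher. TGFB1 was 2.14-fold above untreated cells at 48 h and narrowly missed the threshold (limma, adjusted p = 0.0506, and 0.0323 with the replicate block). TGFBR2, the type II receptor gene, did not pass the threshold at either time. In the fit across all 4368 genes tested, 4.81% of genes passed at 24 h (2.63% higher) and 4.44% at 48 h (2.27% higher), at a Benjamini-Hochberg adjusted p under 0.05 in limma. Of the 3 genes of this family that could be tested, 2 were higher and 0 lower at 24 h, and 1 was higher and 0 lower at 48 h. The fit with the replicate block gave 2 higher and 0 lower at both times. In that fit 11.5% of all genes tested passed at 24 h and 10.0% at 48 h. With bulk RNA, more transcript per cell and more cells that carry it cannot be told apart.

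The windows upstream of the start site are shown for the genes that rose, TGFB1 and LTBP2, and for TGFB2, a ligand that stayed below the minimum. They hold the 250 bases before the start site on GRCh38.p14, from RefSeq, 5′ to 3′ on the gene's own strand. Capitals mark matches, on either strand, to CAGAC (a core of SMAD binding), GGCGGG (a GC box as bound by SP factors, read as CCCGCC on the other strand) and TATAAA. The motifs, and which of them stand in capitals, were chosen after the data and the matches were seen.
TGFB1, chr19:41353923-41354172, minus strand: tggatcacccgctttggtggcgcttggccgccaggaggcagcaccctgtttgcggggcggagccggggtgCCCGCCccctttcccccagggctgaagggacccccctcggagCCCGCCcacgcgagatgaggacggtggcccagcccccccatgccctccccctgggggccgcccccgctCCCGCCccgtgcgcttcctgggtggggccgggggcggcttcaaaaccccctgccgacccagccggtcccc
LTBP2, chr14:74612238-74612487, minus strand: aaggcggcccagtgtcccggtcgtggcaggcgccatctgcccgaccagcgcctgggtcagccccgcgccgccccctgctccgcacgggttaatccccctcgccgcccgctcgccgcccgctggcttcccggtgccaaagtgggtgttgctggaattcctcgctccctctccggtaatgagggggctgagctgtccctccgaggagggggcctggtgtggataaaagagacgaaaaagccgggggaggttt
TGFB2, chr1:218345086-218345335, plus strand: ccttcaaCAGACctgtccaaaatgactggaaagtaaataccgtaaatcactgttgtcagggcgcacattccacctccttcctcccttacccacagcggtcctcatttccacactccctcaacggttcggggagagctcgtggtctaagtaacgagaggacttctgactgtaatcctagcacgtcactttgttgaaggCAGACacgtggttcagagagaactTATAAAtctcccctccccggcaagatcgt
The TGFB1 window is 76.8% G and C, holds 3 GC boxes, which begin 180, 138 and 70 bases upstream, and has no TATAAA and no CAGAC. The LTBP2 window is 68.8% G and C and holds none of these motifs. The TGFB2 window is 50.4% G and C, with a TATAAA that begins 29 bases upstream and CAGAC at 243 and 53 bases. Over 35116 windows of the same length, 42.5% hold GGCGGG, 38% hold CAGAC and 10.7% hold TATAAA, and the median share of G and C is 58%. The 10 genes have 23 such windows, since some have several start sites. CAGAC is in 10 of these windows, from 5 of the genes, GGCGGG in 9, from 5 genes, and TATAAA in 2, those of TGFB2 and TGFB3. Neither the AP-1 motif TGANTCA (6.57% of all windows) nor the doubled SMAD motif GTCTAGAC (0.182%) is in any of the 23.

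TGFB1 encodes the same cytokine that was added to the cells. On its probe set 203085_s_at the untreated arrays of runs 1, 2 and 3 had log2 values of 4.98, 5.72 and 4.87. At 24 h the values were 6.05, 6.43 and 6.63, and at 48 h they were 6.30, 5.95 and 6.61. All 6 treated arrays lay above all untreated ones. With each time taken separately, 8.68% of tested genes had all treated arrays above all untreated ones at 24 h and 9.75% at 48 h. Untreated cells of run 2 started highest, and the gap from that array to the lowest treated array was small.

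The mean of TGFB1 went from 5.19 ± 0.47 (SD, n = 3) to 6.37 ± 0.29 at 24 h, a log2 fold change of 1.18 ± 0.26 (SE), or 2.27-fold, with a 95% interval of 0.58 to 1.77 on the log2 scale (limma, adjusted p = 0.0352). At 48 h the mean was 6.29 ± 0.33 and the difference from untreated cells 1.10 (2.14-fold, with an interval of 0.50 to 1.69), which narrowly missed the threshold (limma, adjusted p = 0.0506). A fit with the replicate number as a block, in which 11.5% of genes passed at 24 h and 10.0% at 48 h, gave adjusted p-values of 0.0219 and 0.0323. The 2 times did not differ beyond their error: 48 h against 24 h gave −0.08, with an interval of −0.68 to 0.51.

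The size of the TGFB1 difference varied between runs. Within runs 1, 2 and 3 the log2 change was 1.08, 0.71 and 1.76 at 24 h and 1.32, 0.22 and 1.75 at 48 h. All 6 changes were positive, and run 2 had the smallest at both times. Without the untreated array of run 2 the change at 48 h was 1.36 and passed (adjusted p = 0.0157). The call at 24 h was lost without the untreated array of run 1 (adjusted p = 0.137) or run 3 (0.115), the 24 h array of run 2 (0.106) or run 3 (0.136), or the 48 h array of run 1 (0.0638). It was also lost with the whole of run 1 (limma, adjusted p = 0.246) or run 3 (0.361) left out, and held without run 2 (0.0274).

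The other TGFB1 probe set, 203084_at, stayed between 1.72 and 1.87 on all 9 arrays, below every array's median, with a log2 change of 0.06 at 24 h. The increase of TGFB1 therefore rests on 1 probe set, and the mean of both gave 0.62 at 24 h (adjusted p = 0.065) and 0.57 at 48 h (adjusted p = 0.0899).

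TGFB2 and TGFB3 encode the other ligands of the same receptors. On the probe set that stands for it, TGFB2 ranged from 2.86 to 3.93, with group means of 3.33 ± 0.14, 3.41 ± 0.26 and 3.33 ± 0.54 at 0, 24 and 48 h. A second TGFB2 probe set, 209909_s_at, ranged from 2.96 to 3.85 and was higher in 3 of 3 runs at both times. Its changes within runs were 0.86, 0.07 and 0.26 at 24 h, the first of them far above the others, and it did not pass with every probe set tested (limma, 0.40, unadjusted p = 0.0406, adjusted p = 0.454). The other 2 TGFB2 probe sets stayed between 1.28 and 1.80. TGFB3 lay between 1.64 and 1.93, below the median of every array.

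TGFBR2, the receptor that binds the ligand first, had values of 5.58, 5.18 and 5.47 in untreated cells of runs 1, 2 and 3. At 24 h it had 4.91, 5.00 and 5.18, and at 48 h 5.06, 5.18 and 5.25. Within each run the treated values were at or below the untreated one, but the groups overlapped at both times. The log2 fold change was −0.38 ± 0.15 (SE) at 24 h, with an interval of −0.71 to −0.05 and an unadjusted p of 0.0285 (16.0% of genes had one under 0.05), and did not pass after adjustment (limma, adjusted p = 0.243, and 0.103 with the replicate block). At 48 h it was −0.25, with an interval of −0.58 to 0.08 (adjusted p = 0.56, and 0.31 with the block).

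Within runs 1, 2 and 3 TGFBR2 differed by −0.67, −0.18 and −0.29 at 24 h. Run 1 had the largest of these, and the order of the runs was the same at 48 h. The intervals leave room for a fall to 0.611 of the untreated level at 24 h and to 0.669 at 48 h. The second TGFBR2 probe set, 207334_s_at, lay between 1.32 and 2.00, below every array's median, and its mean difference had the opposite sign (0.27 at 24 h).

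TGFBR1, the type I receptor that passes the signal to SMAD proteins, has 1 probe set here, and it had values from 0.75 to 1.28. TGFBR3 had values from 1.32 to 1.86. Both lay below the median on all 9 arrays, where a transcript that is absent and one that these probes report poorly look alike. They give no measure of receptor level in these cells.

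**Figure D2:**
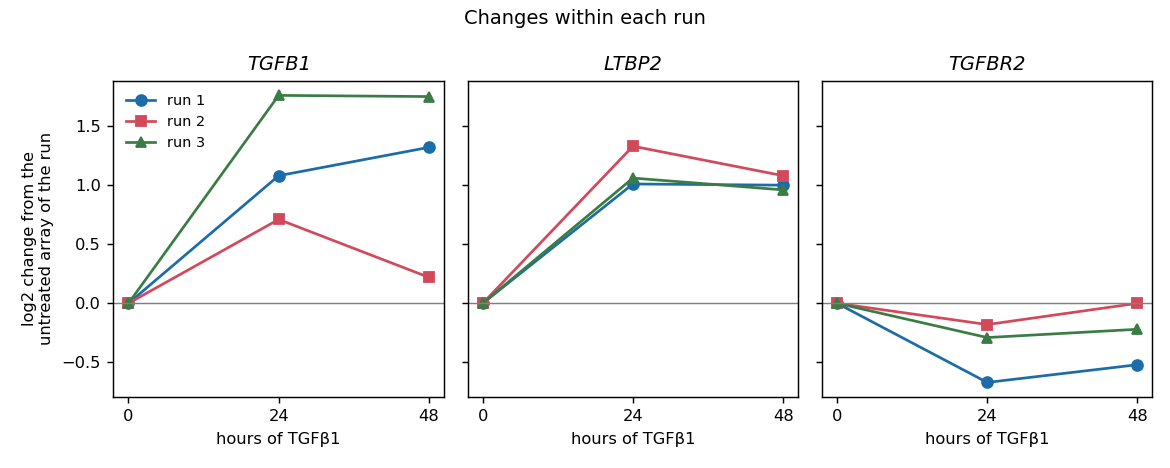
Log2 change (vertical axis) from the untreated array of the same run, by hours of TGFβ1 (horizontal axis), for the 3 genes that were tested, with 1 line per run. The 3 lines of LTBP2 lie together between 0.96 and 1.33, those of TGFB1 spread from 0.22 to 1.76, and those of TGFBR2 lie at or below 0.

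LTBP2 was the most even of the responses. Its probe set, 204682_at, had values of 6.54, 6.56 and 6.67 in untreated cells of runs 1, 2 and 3, 7.55, 7.89 and 7.73 at 24 h, and 7.54, 7.64 and 7.63 at 48 h. The lowest treated array lay well above the highest untreated one. Whatever the size of the gap, 8.68% of tested genes had the 24 h arrays all above the untreated ones, and 9.75% the 48 h arrays.

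The mean of LTBP2 went from 6.59 ± 0.07 (SD, n = 3) to 7.72 ± 0.17 at 24 h and 7.60 ± 0.05 at 48 h. The log2 fold change was 1.13 ± 0.13 (SE) at 24 h, or 2.19-fold, with an interval of 0.84 to 1.42, and 1.01 at 48 h, or 2.02-fold, with an interval of 0.72 to 1.30, with limma adjusted p-values of 0.00118 and 0.00204. Changes within runs were 1.01, 1.33 and 1.06 at 24 h and 1.00, 1.08 and 0.96 at 48 h. Between 24 h and 48 h the difference was −0.12, with an interval of −0.41 to 0.17.

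LTBP2 and TGFB1 rose by similar amounts with unlike precision. At 24 h, 71 of the 4368 genes had a larger log2 increase than LTBP2 and 28 had a smaller p, while 62 had a larger increase than TGFB1 and 175 a smaller p. The SD of the changes within runs was 0.17 for LTBP2 and 0.53 for TGFB1 at 24 h, and 0.06 and 0.79 at 48 h. LTBP2 passed in all 9 fits that left out 1 array, at both times. With a whole run left out it passed at 24 h in 3 of 3 fits, and at 48 h it was lost without run 1 (adjusted p = 0.081) or run 3 (0.0558).

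LTBP1, LTBP3 and, more weakly, LTBP4 bind the latent cytokine, and their values stayed near the array median or below it. LTBP1 ranged from 1.29 to 2.24, LTBP3 from 1.05 to 1.76, and LTBP4 from 2.32 to 3.22. LTBP4 lay above the array median on 9 of 9 arrays, LTBP1 on 1 and LTBP3 on 0. The largest change of LTBP1 within a run, 0.95 in run 2 at 24 h, began at the lowest value of that probe set and was not repeated in run 1 (0.13) or run 3 (−0.07). The other probe sets of LTBP1 and LTBP4 lay between 1.11 and 2.39.

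With every probe set tested and no minimum, none of the 7 dim genes passed at 24 h or 48 h in limma, with or without the replicate block, and on its brightest probe set none had an unadjusted p under 0.05. On these brightest probe sets alone, the log2 fold changes lay between −0.17 and 0.34 at 24 h and between −0.13 and 0.18 at 48 h. The smallest limma adjusted p among them was 0.596 and 0.865. Values this low are compressed towards background, so a change in transcript could be larger than these differences show. Between 48 h and 24 h none of the 3 genes above the minimum passed. No gene of the whole table did so in that comparison (0.00%, limma with or without the block), while 5.01% had an unadjusted p under 0.05.

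By the 6 changes within runs, the tested genes nearest to TGFB1 were CXCL5, HBEGF and JMJD6, and those nearest to LTBP2 were PDLIM7, PRPS1 and BHLHE40. Likeness was the root mean square difference over these changes, among 4365 genes, and was 0.13, 0.22 and 0.26 for the first group and 0.14, 0.17 and 0.18 for the second. CXCL5 is a chemokine that attracts neutrophils and HBEGF a ligand of the EGF receptor. Within runs 1, 2 and 3, CXCL5 changed by 1.07, 0.53 and 1.81 at 24 h and HBEGF by 1.15, 0.48 and 1.87, with run 2 the lowest in both, as for TGFB1. PDLIM7, a protein of actin filaments, changed by 0.98, 1.47 and 1.33 at 24 h, and BHLHE40, a transcriptional repressor, by 1.00, 1.09 and 0.93. These genes were picked for their likeness, and no test was made of it.

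**Figure D3:**
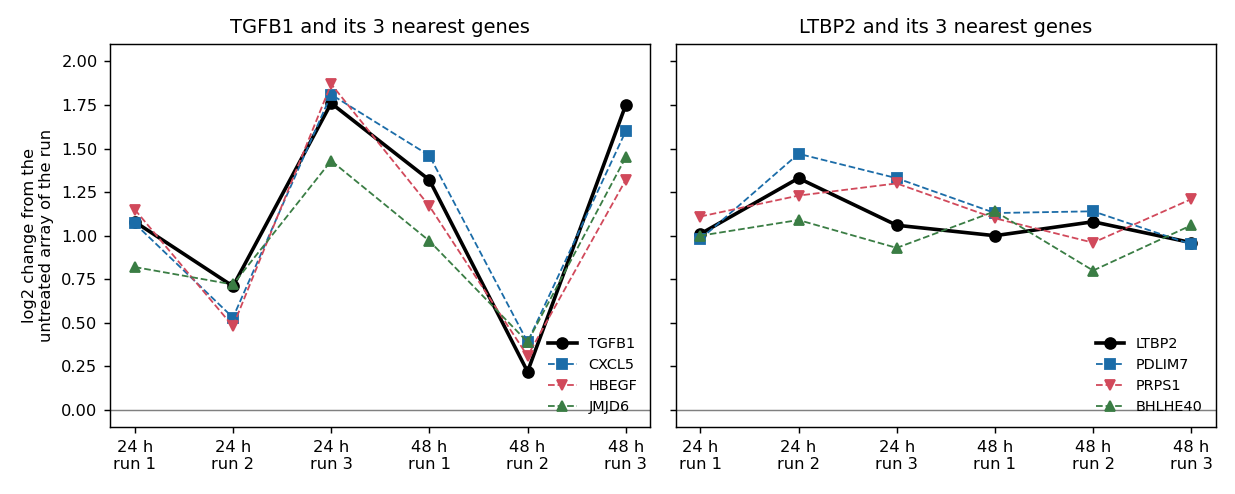
Log2 change (vertical axis) from the untreated array of the same run in the 6 treated arrays (horizontal axis, by time and run) for TGFB1, LTBP2 and the 3 genes nearest to each. Lines join points for legibility only; TGFB1 and its neighbours are lowest in run 2 at both times, while LTBP2 and its neighbours stay between 0.80 and 1.47.

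Other genes that handle TGF-beta were taken from 6 lists with 69 genes that are not among the 10, of which 26 reached the minimum. At 24 h 6 of these were higher and 1 lower, and at 48 h 5 were higher and 1 lower, which is 26.9% and 23.1% of the 26, beside 4.81% and 4.44% of all genes tested. With the replicate block 7 were higher and 3 lower at 24 h and 11 were higher and 2 lower at 48 h, beside 11.5% and 10.0% of all genes. The minimum favours higher calls: MMP9, FBN1, PMEPA1 and SMURF1 did not reach it on any untreated array and were tested only because treated arrays did. They supply 3 of the higher calls at 24 h and 2 at 48 h, which leaves 3 at each time, and the untreated level of each is a value near background. Over all 26 listed genes tested, these included, the median log2 fold change was 0.30 at 24 h and 0.41 at 48 h, beside 0.02 at both times over all genes tested. Some of the listed genes, such as PMEPA1 and SMAD7, are known targets of TGF-beta, and the lists were drawn up with results of these arrays known, so their direction is no independent evidence.

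Among 9 tested genes that process or release the latent complex, THBS1 and MMP9 rose at 24 h. THBS1, or thrombospondin, which can activate latent TGF-beta, went from 5.64 ± 0.57 (SD, n = 3) to 7.23, a log2 fold change of 1.59 (limma, adjusted p = 0.0373), and was at 7.27 at 48 h (1.63, adjusted p = 0.0344). Its call at 24 h held in 2 of 9 fits that left out 1 array, with adjusted p from 0.0153 to 0.135, and at 48 h in 3 of 9 (adjusted p up to 0.131). With no filter on low values THBS1 passed at neither time, and the mean of its probe sets lay below the minimum. MMP9, a gelatinase, went from 3.01, below the minimum, to 5.12 (2.12, adjusted p = 0.0202) and was at 3.40 at 48 h, where it did not pass (adjusted p = 0.801). Its call at 24 h held in 7 of 9 such fits (adjusted p up to 0.0862). Some integrin subunit genes passed at 48 h with the replicate block, but not in the fit of all arrays without it. These were ITGB3 (0.80, adjusted p = 0.0582, 0.019 with the block), ITGAV (0.70, adjusted p = 0.297, 0.019 with the block) and ITGB1 (0.55, adjusted p = 0.198, 0.0366 with the block). ITGB3 at 48 h also passed in 1 of 9 fits that left out 1 array. ITGAV was named after its values were seen. The plasminogen activator gene PLAT differed by −0.74 and −0.83 at 24 h and 48 h, and also passed with the block alone (adjusted p = 0.00789 and 0.00489).

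Of 3 tested matrix genes to which the complex is anchored, the fibrillin gene FBN1 rose from 3.31, below the minimum, to 4.90 at 24 h and 5.65 at 48 h, log2 fold changes of 1.59 and 2.34 (limma, adjusted p = 0.0122 and 0.00162). FN1 differed by 0.27 and 0.53 (adjusted p = 0.469 and 0.109, and 0.0421 with the block at 48 h), and the mean of its probe sets gave 0.61 and 1.19 and passed at both times (adjusted p = 0.0404 and 0.00154). FBN2 differed by 0.21 and 0.49 (adjusted p = 0.745 and 0.454). Of the extracellular binders and co-receptors only NRP1 could be tested. Its log2 fold change was −1.31 at 24 h (adjusted p = 0.091, and 0.0335 with the block) and −0.84 at 48 h. Without the untreated array of run 3 these were −0.83 and −0.35.

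Of 8 tested genes that act on the receptors or their turnover, PMEPA1, SMAD7 and SMURF2 rose at both times. PMEPA1, which sequesters SMAD proteins and promotes receptor decay, rose from 2.43, below the minimum, to 5.12 and 4.90, by 2.69 and 2.48 (limma, adjusted p = 4.51e-05 and 6.44e-05). SMURF2, a ubiquitin ligase that SMAD7 brings to the receptor, rose by 1.00 and 0.81 (adjusted p = 0.00467 and 0.0133), and the inhibitory SMAD7 by 1.62 and 1.69 (adjusted p = 0.0241 and 0.0182). SMAD7 lost its call at 24 h when any 1 of the 24 h arrays was left out (adjusted p up to 0.0783), and at 48 h when any 1 of the 48 h arrays was (up to 0.0813). SMURF2 passed at 24 h with any 1 array left out, and did not at 48 h without the 48 h array of run 1 or run 3 (up to 0.0721). The related ligase gene SMURF1 had 0.77 and 0.75 and did not pass in the fit of all arrays without the block. With the block it passed in limma (adjusted p = 0.0324 and 0.0387). It also passed in 1 of 9 fits that left out 1 array, at each time. CAV1 (−0.23 at 24 h) and STRAP (0.19) did not pass.

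None of 3 tested SMAD and SMAD repressor genes passed at either time: SMAD2 had −0.19 and 0.42, SMAD4 0.20 and 0.29, and TGIF1 −0.28 and 0.00. SMAD3 and SKIL, named after their values were seen, lay below the minimum on every array. SMAD3, a receptor-activated SMAD, had means of 3.47, 2.58 and 2.41, and SKIL, a SMAD repressor, 1.97, 3.13 and 2.90. With no filter on low values SMAD3 was lower at both times (limma, adjusted p = 0.0377 and 0.0152) and SKIL was higher at 24 h (adjusted p = 0.0198, and 0.058 at 48 h). Among related receptors, ACVR1B, the type I receptor of activin, fell by 1.48 at 24 h and by 1.39 at 48 h on the log2 scale (limma, adjusted p = 0.00121 and 0.00184). This fall rests on the brightest ACVR1B probe set, since the mean of its probe sets lay below the minimum and was not tested. ACVR1 had 0.42 and 0.61, and at 48 h passed with the block alone (adjusted p = 0.027). The receptor gene that fell was one for activin, while the TGF-beta receptor gene TGFBR2 did not pass; no test was made of the difference between them.

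**Figure D4:**
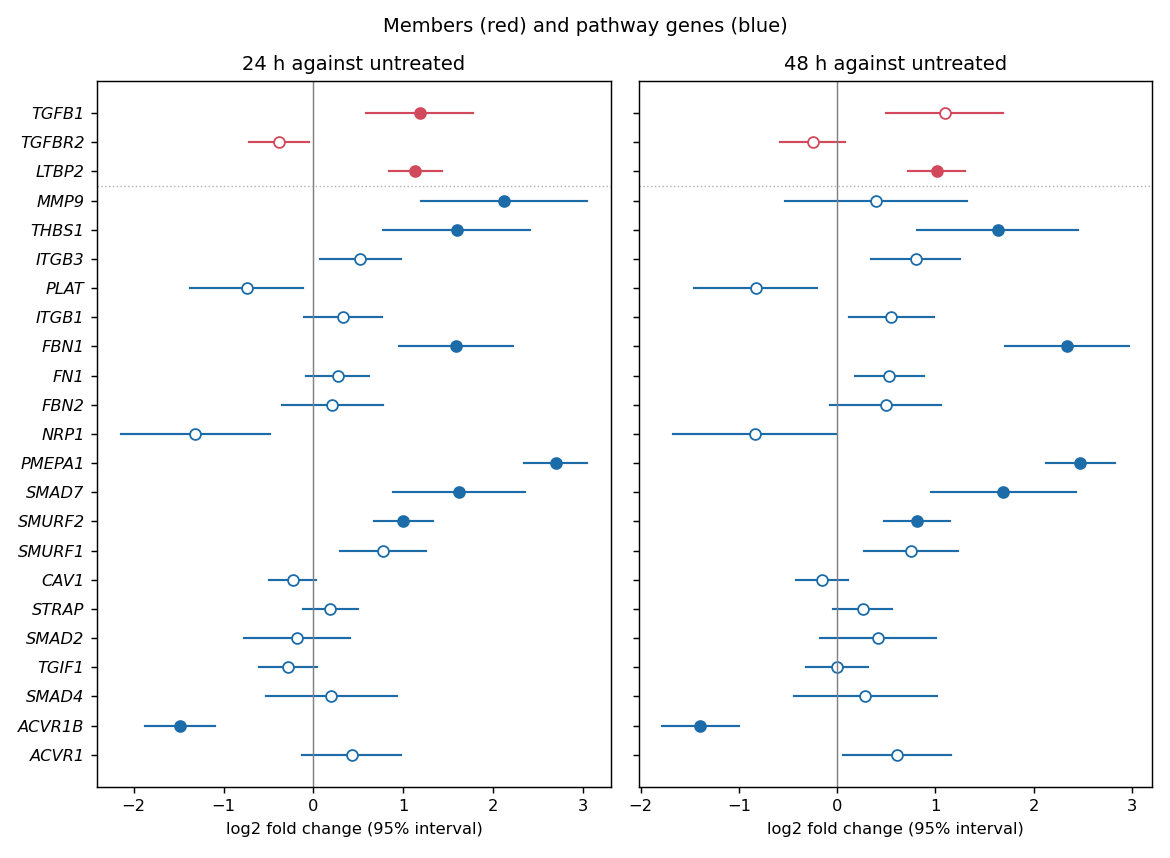
Log2 fold change against untreated cells (horizontal axis) with its 95% interval from limma for the 3 tested members (red) and the named genes of the 6 lists (blue), at 24 h (left) and 48 h (right); filled points have an adjusted p under 0.05. LTBP2 has a narrower interval than TGFB1 at about the same change, and TGFB1 is filled at 24 h and open at 48 h.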

How the data were processed

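The deposited values are log2 intensities, 1 per probe set and array, made by the authors with GCRMA from a 1-colour Affymetrix array, per the submitters' processing notes. GCRMA subtracts a background modelled from probe sequence and normalizes between arrays. Differences between values near background can understate a change in transcript. The base of the log was read from the range of the values (0.327 to 12.5). Of 22277 probe sets, 19070 carry 1 gene symbol, and 19058 were matched to a RefSeq gene table by gene ID. Symbols gave 11960 genes, of which 4368 (36.5%) reached a log2 value of 4 on 3 or more arrays.

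Groups were compared by the moderated linear models of limma (version 3.58.1, R 4.3.3; 9 arrays in 1 fit, Benjamini-Hochberg over 4368 genes, threshold 0.05), which was tested on simulated data. Intervals are 95%, and the number of arrays limits the precision. Deviations from group means correlated at 0.378 to 0.662 between arrays of 1 replicate number and at −0.526 to 0.185 between others. The numbers were therefore taken to pair arrays. Calls and intervals are nonetheless from the fit that ignores this pairing, unless the block is named. The replicate block is given where it changes a call. The replicates are runs of 1 cell line.

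The members and gene lists were chosen with earlier results of these data known. Named were all members, every listed gene past the threshold, up to 3 others per list with the smallest p, and the 3 genes nearest to each member that passed. Alternatives changed the block, filter, probe set, normalization, spread estimate and arrays used. Upstream windows are from RefSeq.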

Additional observations from a re-analysis of the deposited data

How the results depend on the processing

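Of the genes of this family, 2 passed at 24 h and 1 at 48 h. At 24 h the count fell to 1 with no filter on low values (more genes tested), with the mean of the probe sets of a gene (a dim TGFB1 probe set averaged in), and with only the 2 groups compared (fewer arrays). At 48 h it was 2 with the replicate block, with a minimum log2 value of 5, and with a trended, robust spread, where the cause was not tested. In each case TGFB1 made the difference, with adjusted p from 0.0219 to 0.0776 at 24 h and from 0.0323 to 0.0907 at 48 h over these settings. Leaving out an array or a run gave 1 to 2 genes at 24 h, 0 to 2 at 48 h, and 0 for 48 h against 24 h. For the pathway lists, 7 of 26 genes tested passed at 24 h and 6 at 48 h, beside 4.81% and 4.44% of all genes tested. With the replicate block 10 and 13 of the 26 passed, beside 11.5% and 10.0% of all genes. With no filter 8 and 6 of 62 passed (2 of them lower at each time). With an array or run left out, 1 to 7 and 1 to 8 of the 26 passed. The share over all genes is not given for the no-filter and leave-out fits. The block changed no other call of a member.

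LTBP2 kept its direction against untreated cells in every setting, with a log2 change of 0.98 to 1.22. TGFB1 for 48 h against 24 h ranged from −0.25 to 0.12 over the fits that left out an array or a run. So did FBN2 at 24 h (−0.0642 to 0.40), SMAD2 at 24 h (−0.40 to 0.19), SMAD4 at 24 h (−0.16 to 0.58) and 48 h (−0.0684 to 0.67), and TGIF1 at 48 h (−0.11 to 0.0635), each crossing 0. SMAD2 at 24 h was 0.0755 with the mean of its probe sets, and TGIF1 at 48 h was 0.00385 with array medians set equal. None of these was called, and the cause was not tested. TGFBR2 has no value with the mean of its probe sets, which fell below the minimum. Genes near background limit what the arrays show for 7 of the 10 members. The fit of every probe set with no filter was chosen after seeing the data.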
